A study of Mus musculus with 8 samples.

Results

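The genes described here are those of the iron hormone hepcidin and of iron handling: Hamp, Hamp2, Tfrc, Tfr2, Trf, Slc40a1, Slc11a2, Hfe and Fth1. They are 9 of the 28146 gene names on the array. They were chosen as the non-control probes that carry one of these names, with Trfr2 read as Tfr2, which gave 11 of 41174 probes. Liver RNA came from C57BL/6J mice in late pregnancy and from their male fetuses, with 4 kinds of sample. Food-restricted (FR) mothers received 50% of the chow eaten by controls from gestation day 10 to 17, and FR fetuses were carried by them. Control mothers ate the same chow freely, and control fetuses were carried by those mothers. Sampling was at gestation day 18, with 6 mothers in each diet group and, from each, 2 male fetuses. Before labelling, RNA was pooled: 1 pool of 6 mothers per diet, 1 pool of 6 fetuses per diet, and 2 pools of 3 fetuses per diet, called group 1 and group 2. Each FR pool was hybridised with its control pool on 2 arrays with exchanged dyes, so 8 arrays on 2 slides held 4 pool pairs. With 2 fetuses from each of 6 mothers, fetal pools of 6, 3 and 3 cannot all come from separate mothers. The labels do not say which fetal pools share mothers, or whether they share animals. The fetal pools are therefore not independent litters, and p-values measure only the spread between these pools.

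Hepcidin is a peptide hormone that hepatocytes secrete. It binds ferroportin, the only known cellular iron exporter, and causes its degradation, so that less iron enters the plasma. Its gene is switched on by bone morphogenetic proteins (BMPs) acting through SMAD factors when iron is plentiful, and by interleukin 6 acting through STAT3 in inflammation, and it is held down when red cell production is high. In late gestation the fetal liver is still a site of red cell production, and iron reaches the fetus across the placenta from the maternal plasma.

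Mice carry a pair of hepcidin genes side by side on chromosome 7. Hamp encodes the iron hormone, and Hamp2 is a duplicate whose overexpression in mice did not change body iron. Their 60-base probes are shown because the results for the 2 genes differ. In the best ungapped placement 42 of 59 compared bases were identical, and capitals mark the 17 that differ. The Hamp probe lies at chr7:31727490-31727549 and the Hamp2 probe at chr7:31707520-31707579, both on the minus strand of build mm9, as the files give them.
Hamp probe: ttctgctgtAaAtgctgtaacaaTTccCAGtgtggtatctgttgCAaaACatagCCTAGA
Hamp2 probe: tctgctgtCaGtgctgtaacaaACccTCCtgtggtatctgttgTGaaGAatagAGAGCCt

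The 250 bases before the start of each gene are shown from RefSeq promoters of build GRCm38.p6, chr7:30944030-30944279 for Hamp and chr7:30924182-30924431 for Hamp2, both on the minus strand. Capitals mark GGCGCC, the core of the BMP-responsive element known from the human hepcidin promoter, the related letters GGCACC, and TTCTTGGAA, the STAT3 site known from the same promoter. Both strands were searched, and no 2 of these matches overlap.
Hamp promoter: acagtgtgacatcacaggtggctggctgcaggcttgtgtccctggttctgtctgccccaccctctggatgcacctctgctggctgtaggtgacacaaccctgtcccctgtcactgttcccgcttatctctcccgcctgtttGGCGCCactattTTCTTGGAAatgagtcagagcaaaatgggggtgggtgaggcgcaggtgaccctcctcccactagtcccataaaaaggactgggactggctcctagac
Hamp2 promoter: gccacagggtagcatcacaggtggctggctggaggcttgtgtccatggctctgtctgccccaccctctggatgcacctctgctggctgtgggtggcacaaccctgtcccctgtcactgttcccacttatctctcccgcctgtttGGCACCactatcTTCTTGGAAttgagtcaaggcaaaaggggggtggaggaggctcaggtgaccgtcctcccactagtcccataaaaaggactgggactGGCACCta

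The windows were 91.9% identical, 227 of 247 bases in the best ungapped placement. Hamp held GGCGCC from position -109 to -104, counted from the start of the gene, and the aligned hexamer of Hamp2 differed by G4A, counted from the 5′ base of the hexamer on the gene's strand. Both genes held TTCTTGGAA 6 bases further on. GGCGCC occurred in 9.59% of 32851 windows of the same length, GGCACC in 12.9% and TTCTTGGAA in 0.365%. Of the 6 members with a window in the table, Hamp and Tfrc held GGCGCC, Hamp2 and Fth1 held GGCACC, and Hamp and Hamp2 held TTCTTGGAA. These matches are a description of the letters and were not set against binding data.

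Values below are log2 intensities for levels and log2 differences for responses, so that 1 unit is a 2-fold change. On all 8 arrays, each of the 11 probes exceeded background clearly in the Cy3 and the Cy5 channel, and none was saturated. Median spot brightness over all probes ran from 69.1 to 284 in the Cy3 channel and from 122 to 310 in the Cy5 channel. Alpha-fetoprotein (Afp), a fetal hepatocyte gene, was at 7.85 in the maternal control pool and at 17.09 ± 0.06 in the fetal control pools (SD, n = 3). Albumin (Alb) was at 17.21 in mothers and 17.45 ± 0.16 in fetuses. Xist, transcribed from the inactive X, was below background in 0 of 4 maternal channels and in 9 of 12 fetal channels. Ddx3y, a Y-linked gene, was below it in 4 of 4 maternal channels and in 0 of 12 fetal ones. These genes matched the labels.

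In fetal liver, maternal food restriction went with a 3.17-fold higher level of Hamp. Its log2 level was 14.99 in the FR pool of 6, 13.39 in FR group 1 and 14.87 in FR group 2, against 12.64, 12.62 and 13.00 in the matching control pools. Every FR pool lay above every control pool. The smallest of the 3 responses was in group 1, where FR exceeded control by 0.76, while the pool of 6 gave 2.35 and group 2 gave 1.87. All 6 fetal arrays had FR above control, whichever dye FR carried. The mean response was 1.66 ± 0.81 (SD, n = 3; 95% interval 0.91 to 2.42; limma adjusted p = 0.0186). On slide 1 the response was 2.35 in 1 pair, and on slide 2 the mean of both groups was 1.32, which alone missed the threshold (adjusted p = 0.072). It also missed it with log ratios scaled between arrays (1.96, adjusted p = 0.119). The summed level of 7 hepatocyte markers changed by 0.09, -0.33 and -0.06 in the same pairs. That sum leans on the brightest of them, Alb, at 17.45 in fetal control pools. The 7 did not move one way: Cps1 passed as risen (0.67), Ttr (-0.97) and Alb (-0.45) as fallen, and the others did not pass. The part of hepatocyte content in the Hamp value was not tested.

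Hamp2 did not pass the test. Its level was 7.66, 7.49 and 8.03 in FR fetal pools, against 7.59, 7.54 and 7.90 in control fetal pools, and the groups overlapped. The mean response was 0.05 ± 0.09 (SD, n = 3; 95% interval -0.09 to 0.19; adjusted p = 0.542).

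**Figure D1:**
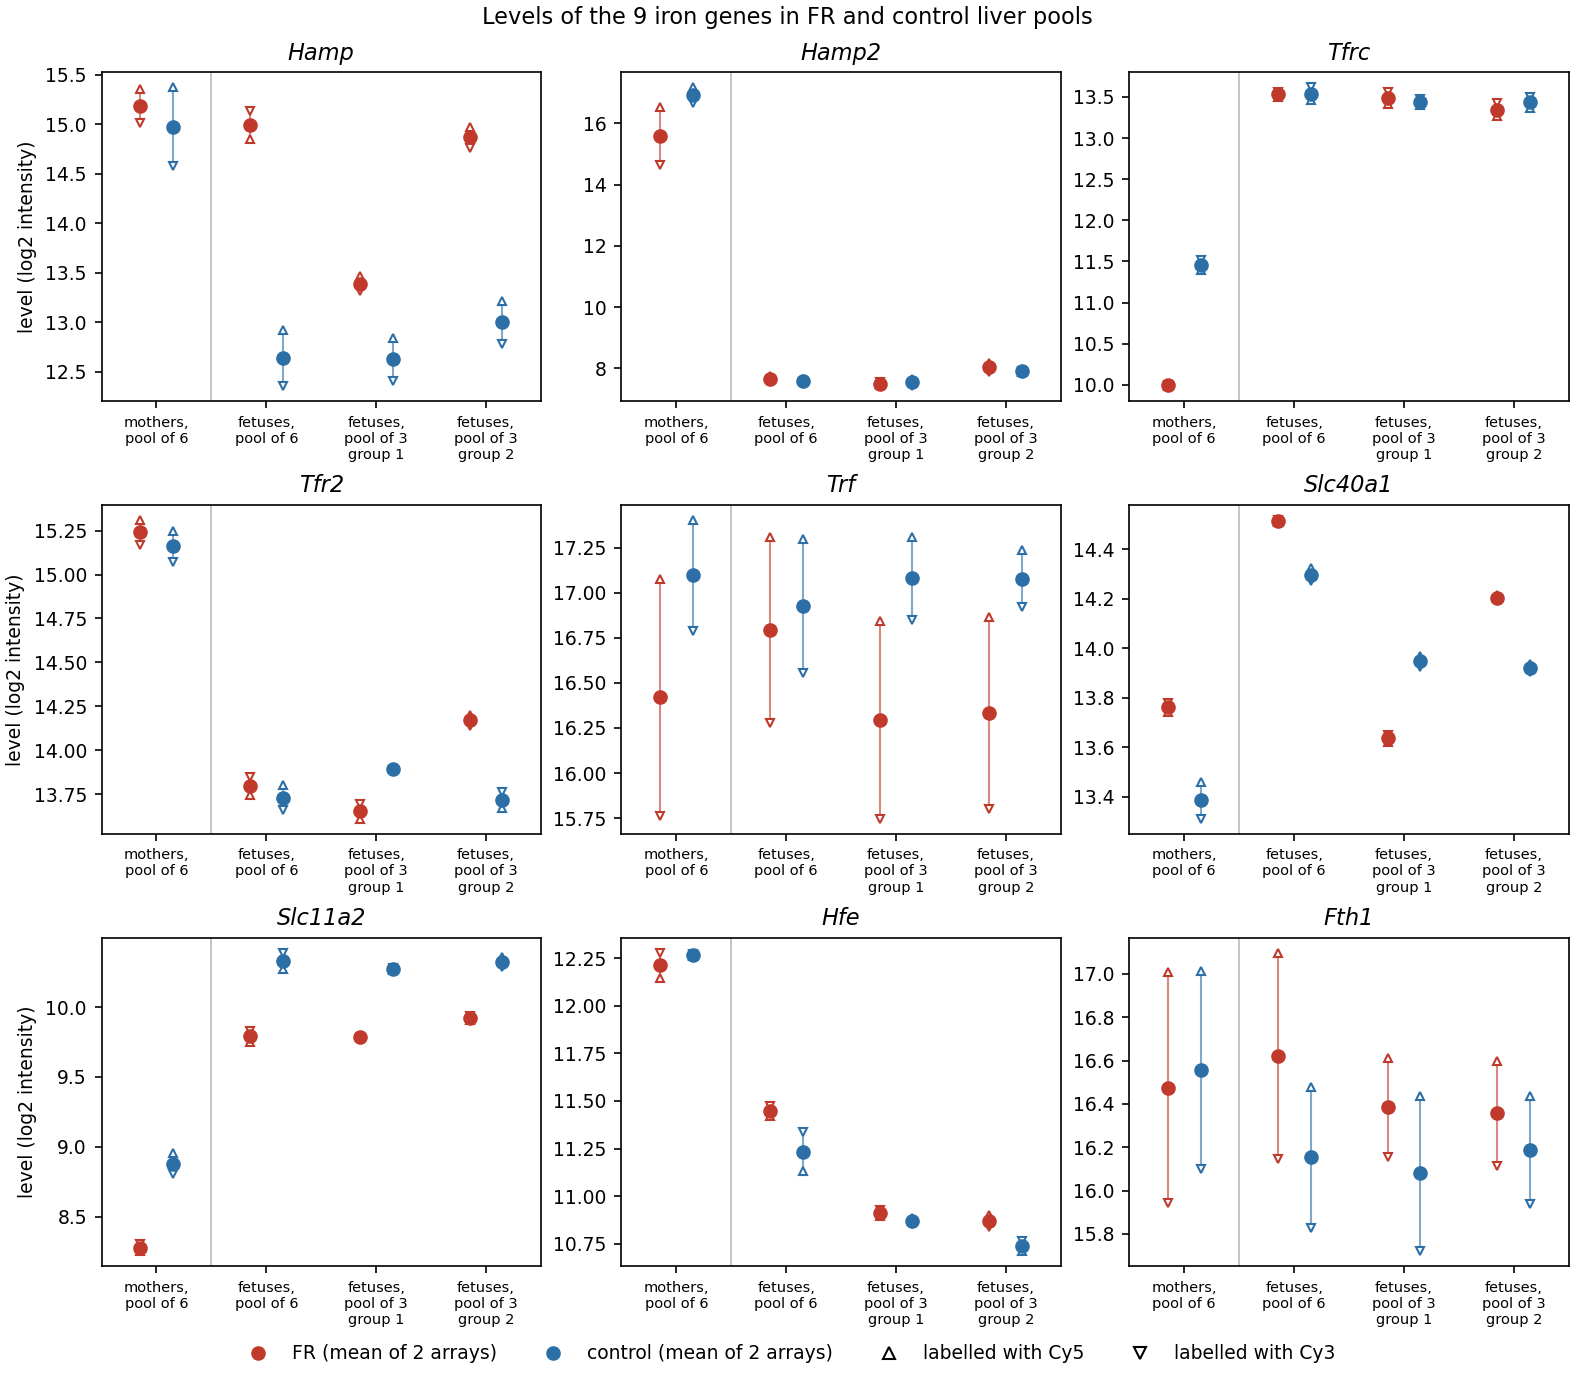
Level of each gene (log2 intensity, y axis) in the FR (red) and control (blue) pool of each of the 4 pool pairs (x axis). Circles are means of 2 arrays, and triangles show the same pool labelled with Cy5 (up) and Cy3 (down). Hamp lay at 13.39 to 14.99 in FR fetal pools and at 12.62 to 13.00 in control fetal pools, and Tfrc was lower in the FR than in the control maternal pool.

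Of the 9 genes, 4 passed the test in fetal liver: Hamp and Fth1 rose, and Slc11a2 and Trf fell. Among all 30809 probes tested, 25.2% were called, 10.9% as risen and 14.3% as fallen, so a count of 4 in 9 is to be read against a background of about 1 in 4. With no loess correction, risen probes made up 25.2% of calls in place of 43.4%. The median response was 0.06 over the 9 genes and 0.0045 over all probes tested.

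Slc11a2 encodes DMT1, which carries ferrous iron into the cytosol from the endosome. Its brightest probe was at 9.79, 9.79 and 9.92 in FR fetal pools, against 10.33, 10.27 and 10.32 in control fetal pools. Every FR pool lay below every control pool. The mean response was -0.48 ± 0.07 (SD, n = 3; 95% interval -0.60 to -0.35; adjusted p = 0.00718), or 1.39-fold lower. Its call was lost with both pools of 3 alone (-0.44, adjusted p = 0.0529) and with scaling between arrays (-0.50, adjusted p = 0.073). The mothers gave -0.60, with -0.55 and -0.65 on the 2 arrays, a single pool pair with no test.

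The gene has 3 probes on the minus strand of chromosome 15 (mm9), which did not read alike. Probe 1, the brightest, lies at chr15:100218333-100218392, probe 2 at chr15:100223347-100223406 and probe 3 at chr15:100240516-100240575, so that probe 1 lies furthest along the direction of transcription. They are printed because each samples another stretch of the transcripts, and DMT1 transcripts are known to differ at both ends.
Slc11a2 probe 1: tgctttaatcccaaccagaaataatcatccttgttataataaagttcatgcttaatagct
Slc11a2 probe 2: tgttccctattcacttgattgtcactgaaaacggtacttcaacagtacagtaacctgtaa
Slc11a2 probe 3: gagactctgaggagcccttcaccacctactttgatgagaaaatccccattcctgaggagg

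Probe 2 also fell in fetal liver, by -0.62 ± 0.03 (SD, n = 3; adjusted p = 0.00481). Probe 3 had a response of 0.01 ± 0.05 (SD, n = 3; adjusted p = 0.852). In mothers, probe 2 gave -0.28 and probe 3 gave -0.09. The exon each probe lies in was not looked up, since no annotation of mm9 was used here.

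Trf encodes transferrin, the plasma carrier of iron, and Fth1 encodes the heavy chain of ferritin, which stores it. Their probes were bright, with mean log2 intensities of 16.77 and 16.35, and their response depended on which dye FR carried. Trf was at 16.79, 16.30 and 16.33 in FR fetal pools, against 16.93, 17.08 and 17.08 in control fetal pools. The mean response was -0.55 ± 0.37 (SD, n = 3; 95% interval -0.91 to -0.20; adjusted p = 0.0426). With FR in Cy5 alone the mean was 0.23 (adjusted p = 0.307), the opposite sign. The 3 arrays with FR in Cy3 gave -1.02, -1.56 and -1.43. Trf also lost its call under 6 other settings.

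Fth1 was at 16.62, 16.38 and 16.36 in FR fetal pools, against 16.15, 16.08 and 16.19 in control fetal pools. The mean response was 0.31 ± 0.15 (SD, n = 3; 95% interval 0.14 to 0.49; adjusted p = 0.0311). In every fetal pair the 2 arrays disagreed in sign: 1.27 and -0.33 in the pool of 6, 0.89 and -0.28 in group 1, and 0.66 and -0.32 in group 2, with FR in Cy5 given first. With FR in Cy3 alone the mean was -0.31 (adjusted p = 0.0148), and the call was lost under 6 further settings. Among probes with a mean log2 intensity of at least 16, a limit set after the values were seen, the median gap between the dye orientations was 1.88 over 16 probes in the maternal pair and 1.58 over 45 probes in the fetal pool of 6. It was 0.49 over 233 probes in group 1 and 0.54 over 241 probes in group 2. For dimmer probes it was -0.0043 to 0.022 in the 4 pairs. Single probes below the limit could still have a gap. For Hamp it was 1.14 in mothers, and 0.28, 0.58 and 0.65 in the pool of 6, group 1 and group 2. The part of the dye gap in the Trf, Fth1 and Hamp values was not tested.

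Besides Hamp2, 4 genes did not pass in fetal liver. Tfrc encodes transferrin receptor 1, through which cells take up iron, and was read from 10 spots of 1 probe. It was at 13.53, 13.48 and 13.34 in FR fetal pools, against 13.54, 13.44 and 13.44 in control fetal pools, with an interval of -0.15 to 0.11 (response -0.02 ± 0.07, SD, n = 3; adjusted p = 0.81). Slc40a1 encodes ferroportin and gave 0.22, -0.31 and 0.29 in the 3 pairs (mean 0.06 ± 0.33, SD, n = 3; adjusted p = 0.743). Tfr2 and Hfe encode partners that sense iron-loaded transferrin upstream of Hamp. Tfr2 gave 0.07, -0.24 and 0.45 (mean 0.09 ± 0.35, SD, n = 3; adjusted p = 0.64), and Hfe gave 0.21, 0.04 and 0.13 (mean 0.13 ± 0.09, SD, n = 3; adjusted p = 0.141). In group 1, where Hamp moved least, Tfr2 and Slc40a1 were lower in FR than in control, and in group 2 both were higher. In the pool of 6, where Hamp moved most, Tfr2 gave 0.07 and Slc40a1 gave 0.22, less than in group 2.

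**Figure D2:**
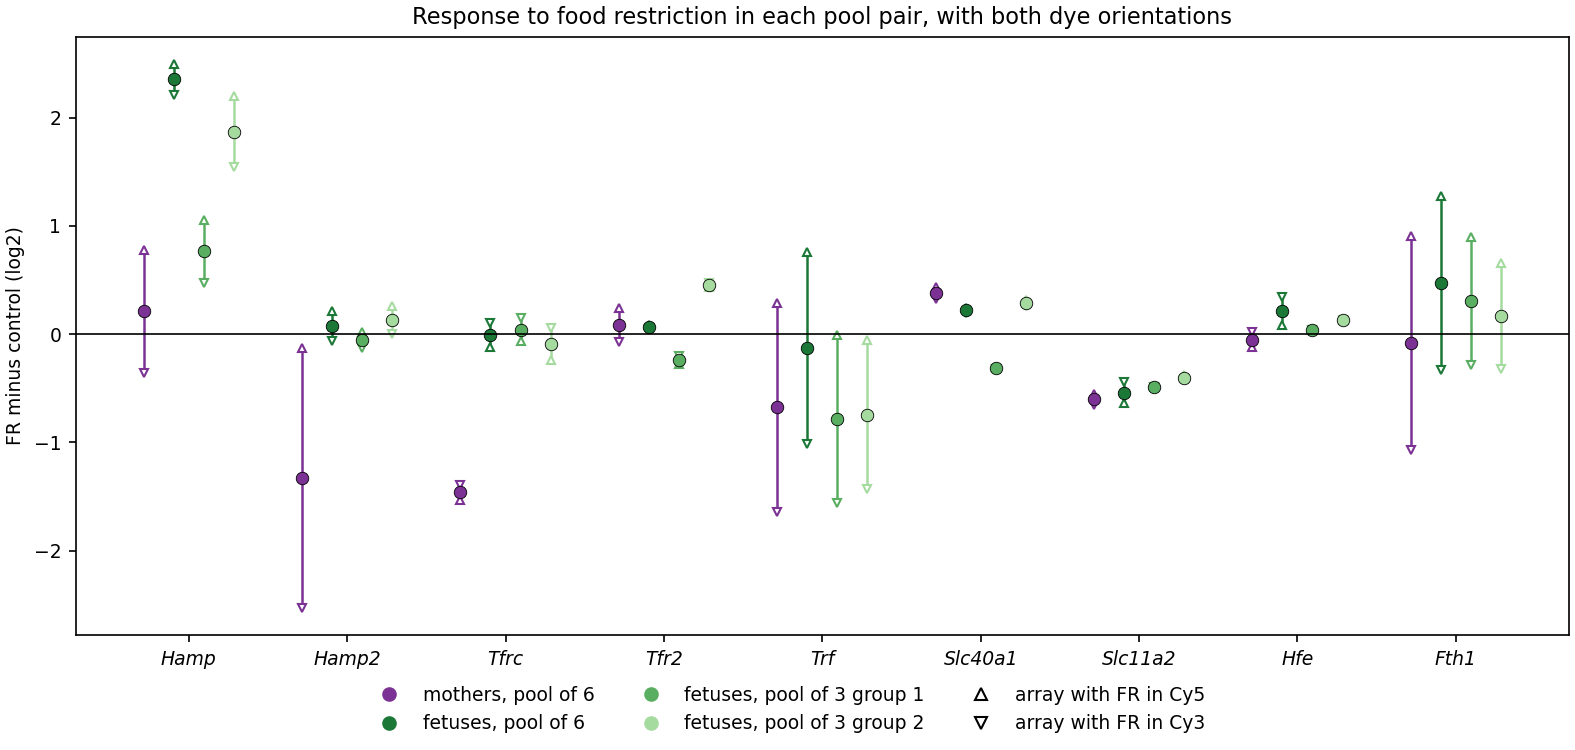
FR minus control (log2, y axis) for each gene in each pool pair. Circles are pair means and triangles the arrays with FR in Cy5 (up) and Cy3 (down). Hamp was above 0 on all 6 fetal arrays and Tfrc below 0 on both maternal ones, while Trf, Fth1 and the maternal Hamp2 spread widely between the dyes.

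In maternal liver only 1 pool pair was measured, so there is no test, and a gene was called where it changed at least 2-fold the same way on both arrays. Tfrc was the member called, and it was lower. It was at 9.99 in the FR pool, against 11.46 in the control pool, a response of -1.46 or 2.76-fold lower, with -1.53 and -1.39 on the 2 arrays. Of 28321 probes, 1.03% were called lower and 1% higher. With no loess correction the mean for Tfrc was -1.48, but not both arrays reached 2-fold, and no member was called. The summed level of 10 Kupffer cell and macrophage markers changed by -0.49 in the maternal pair. The erythroid markers did not move one way: the median over the 6 that were measured in mothers was -0.0096, with Alas2, the erythroid enzyme that starts heme synthesis, at -0.86 and Klf1 at 0.88. Their summed level changed by -0.40, and Alas2 alone made up 64.4% of that sum in the control pool. The part of these cells in the Tfrc value was not tested, and in bulk tissue fewer cells and less RNA per cell cannot be told apart.

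Hamp was at 15.19 in the FR maternal pool, against 14.97 in the control maternal pool. The 2 arrays gave 0.78 and -0.36, with a mean of 0.21. Hamp2 was at 15.60 in the FR pool, against 16.93 in the control pool, a mean response of -1.33. Its arrays gave -0.13 with FR in Cy5 and -2.53 with FR in Cy3, so it was not called. Trf gave 0.29 and -1.64 and Fth1 gave 0.91 and -1.07 in the same order. Slc40a1 gave 0.43 and 0.32, Tfr2 0.24 and -0.08, and Hfe -0.12 and 0.02.

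The maternal response differed from the fetal one for 2 of the 9 genes, in a test that takes the lone maternal pair to vary like the 3 fetal pairs. Among 27579 probes, 3.12% were called. Tfrc differed by -1.44 (95% interval -1.70 to -1.19; adjusted p = 0.0103) and Hamp2 by -1.38 (95% interval -1.66 to -1.10; adjusted p = 0.0117). The Hamp2 difference was -0.29 with FR in Cy5 alone (adjusted p = 0.369). With both pools of 3 alone as the fetal side, limma called no probe, although 4520 had an unadjusted p under 0.05. Tfrc and Hamp2 then differed by -1.44 and -1.37 (adjusted p = 0.0949 and 0.104). Higher calls were 60.2% of all calls with no loess correction, in place of 49.5%. For Hamp the difference was -1.45, with an interval of -2.95 to 0.05 (adjusted p = 0.259). It passed only when group 1 was left out (-1.90, adjusted p = 0.0311). Trf, Tfr2, Slc11a2, Hfe, Slc40a1 and Fth1 differed by -0.39 to 0.31, and none passed.

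In control liver, 6 of the 9 genes passed the test between mother and fetus: Hamp, Hamp2, Tfr2 and Hfe were higher in the mother, and Tfrc and Slc11a2 were lower. The maternal side was 1 pool, taken to vary like the 3 fetal pools, so the spread between maternal pools does not enter these p-values. Among 30531 probes, 17% were called higher and 15.5% lower. Hamp2 had the widest gap of the 9. It was at 16.93 in the maternal pool, against 7.59, 7.54 and 7.90 in the fetal pools, a difference of 9.25 (95% interval 8.74 to 9.76; adjusted p = 4.87e-05), or 609-fold. With the scanner software's processed signals it was 1023-fold. Hamp was at 14.97 in the maternal pool, against 12.64, 12.62 and 13.00 in the fetal pools, a difference of 2.22 (95% interval 1.69 to 2.75; adjusted p = 0.00165). The FR fetal pools were at 14.99, 13.39 and 14.87, all above the fetal control pools.

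Tfr2 was at 15.16 in the maternal pool, against 13.73, 13.89 and 13.72 in the fetal pools (difference 1.38, adjusted p = 0.00314). Hfe was at 12.27 in the maternal pool, against 11.23, 10.87 and 10.74 in the fetal pools (difference 1.32, adjusted p = 0.0118). For both genes the maternal pool lay above all 3 fetal pools. The median difference in the same comparison was 0.87 over 7 hepatocyte markers, which ran from -0.46 (Ttr) to 6.61 (Tdo2). It was -5.13 over 9 erythroid markers, so the cell content of the samples differed too. The part of cell content in the Hamp, Hamp2, Tfr2 and Hfe differences was not tested. Tfrc was at 11.46 in the maternal pool, against 13.54, 13.44 and 13.44 in the fetal pools, a difference of -2.02 (95% interval -2.40 to -1.64; adjusted p = 8.02e-04), or 4.05-fold lower. Red cell precursors are known for high Tfrc. The summed level of 9 erythroid markers was 5039 in the maternal control pool and 146633, 140480 and 152773 in the fetal ones. The part of these cells in the Tfrc difference was not tested.

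Slc11a2 differed by -1.43 at probe 1 (adjusted p = 0.00211), by 0.78 at probe 2 (adjusted p = 0.0536) and by -0.31 at probe 3 (adjusted p = 0.323), so its direction differed between probes. Slc40a1 differed by -0.67 (adjusted p = 0.0632), Fth1 by 0.42 (adjusted p = 0.0916) and Trf by 0.07 (adjusted p = 0.77). Within slide 1, mother against the fetal pool of 6, the differences were 2.34 for Hamp, 9.34 for Hamp2, 1.43 for Tfr2, 1.03 for Hfe, -2.08 for Tfrc and -1.45 for Slc11a2.

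**Figure D3:**
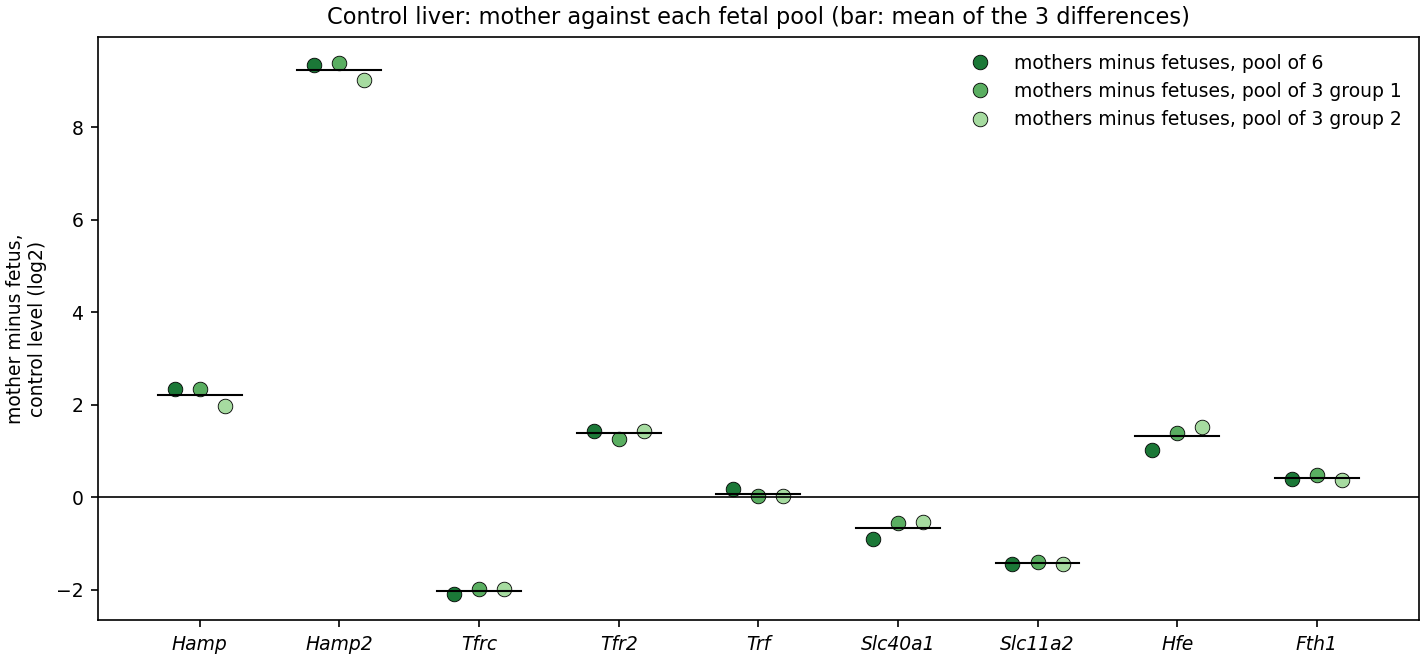
Control level in the mother minus that in each of the 3 fetal pools (log2, y axis) for each gene, with bars at the mean of the 3 differences. Hamp2 lay at 9.02 to 9.39 and Tfrc at -2.08 to -1.98. Levels of different genes come from different probes and are not set against each other.

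Of 21 genes of the BMP and SMAD arm, which controls hepcidin, 3 rose and 3 fell in fetal liver, with a median of 0.07, where 25.2% of all probes were called. Bmp2, a ligand made by liver endothelium, rose by 0.42 ± 0.14, and Furin, a protease that cleaves the hepcidin precursor, by 0.33 ± 0.11 (SD, n = 3 each; adjusted p = 0.0138 and 0.0180). Hjv (hemojuvelin), the BMP co-receptor of this pathway, fell by 0.36 ± 0.15, and Id3, a SMAD target, by 0.37 ± 0.14 (SD, n = 3 each; adjusted p = 0.0223 and 0.0197). Acvr2a rose and Smad5 fell as well, each named after its values were seen. Bmp6, the iron-responsive ligand, gave 0.07 ± 0.06 (adjusted p = 0.343), and Id1, another SMAD target also named after its values were seen, gave 0.13 ± 0.38 (adjusted p = 0.543).

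In mothers the SMAD targets Id1, Id2 and Id3 had responses of -1.30, -1.75 and -1.33, each at least 2-fold on both arrays. They were the 3 of 21 genes of this arm called lower, beside 1.03% of all probes. Smad7 and Atoh8 of the same arm, named after their values were seen, gave -0.14 and -0.41 and were not called. Furin was higher by 1.44. The maternal and fetal responses differed for Id2 (-1.82, adjusted p = 0.0440), Id3 (-0.96, adjusted p = 0.0357), Furin (1.11, adjusted p = 0.0196) and Smad6, a SMAD inhibitor and target named after its values were seen (-0.84, adjusted p = 0.0289). These were 4 of 21 genes of this arm, beside 3.12% of all probes.

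Of 12 genes of the inflammatory and hypoxia arm, 1 rose and 3 fell in fetal liver, beside 25.2% called among all probes. Jak2, the kinase below the interleukin 6 receptor, rose by 0.62 ± 0.26. Il1b, an inflammatory cytokine, fell by 0.81 ± 0.30, and Cebpa, a hepatocyte factor that binds the hepcidin promoter, by 0.71 ± 0.37 (SD, n = 3 each; adjusted p = 0.0158, 0.0118 and 0.0233). Il6st, the signalling chain of that receptor, fell as well, and it was named after its values were seen. Inhbb, which encodes a subunit of activin B, gave -0.67 ± 0.48 (SD, n = 3; adjusted p = 0.0511). In mothers Socs3, a STAT3 target, gave 0.57 and Creb3l3, a liver transcription factor, gave 0.51. Of 14 acute phase genes that interleukin 6 induces through STAT3, 1 rose and 7 fell in fetal liver (10.9% and 14.3% among all probes), with a median of -0.34, the lowest of the 10 lists of regulators and iron genes. Saa3 fell by 1.27 ± 0.25, Fgg by 0.73 ± 0.30 and Saa1 by 0.68 ± 0.15, while Hp rose by 0.86 ± 0.49 (SD, n = 3 each; adjusted p = 0.00491, 0.0145, 0.00698 and 0.0280). Fgb was also among the 7 that fell, and it was named after its values were seen. Fgg, Hp and Fgb were bright, at 17.37, 15.61 and 16.99 in fetal control pools, and their maternal arrays disagreed in sign. With FR in Cy5 first, these gave 0.95 and -0.89 for Fgg, 1.83 and -0.89 for Hp, and 1.18 and -1.53 for Fgb. The part of the dye gap in their fetal calls was not tested. In mothers Saa2 and Saa3 had responses of -2.54 and -1.67, and Saa1 gave -1.82 and -1.17 on the 2 arrays.

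Among 6 suppressors of hepcidin, 2 passed, beside 25.2% of all probes. Gdf15 rose by 0.27 ± 0.15 and Fgl1, a secreted liver protein reported to bind BMPs, fell by 1.34 ± 0.83 (SD, n = 3 each; adjusted p = 0.0433 and 0.0330). Fgl1 fell by 1.52, 2.06 and 0.43 in the pool of 6, group 1 and group 2. Erfe (erythroferrone), the signal from red cell precursors, gave -0.00138 ± 0.0621 (adjusted p = 0.987). Twsg1 and Pdgfb gave -0.18 and -0.02 and did not pass.

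**Figure D4:**
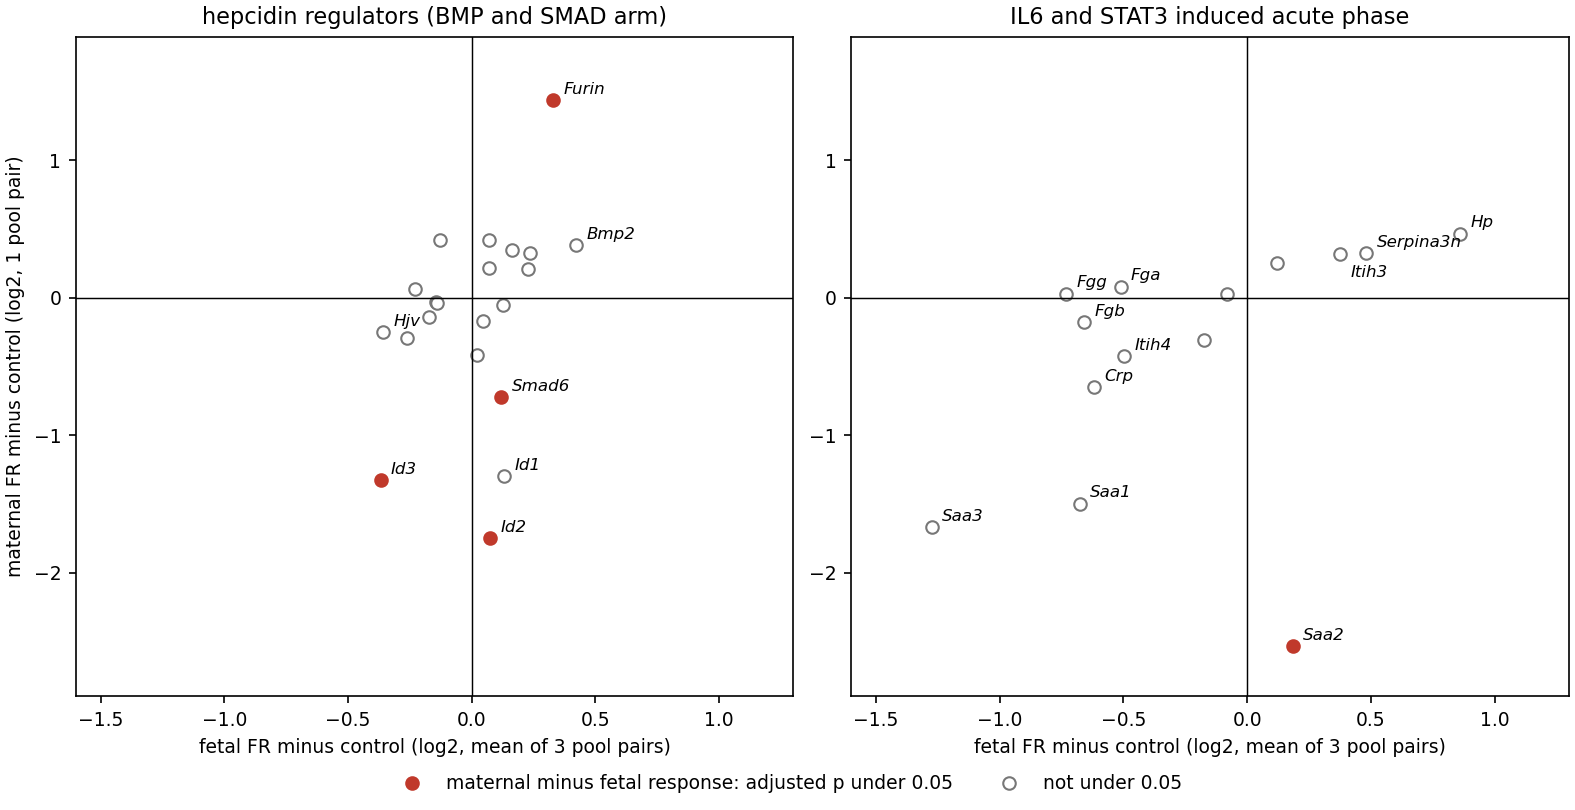
Maternal response (log2, 1 pool pair, y axis) against fetal response (log2, mean of 3 pool pairs, x axis) for genes of the BMP and SMAD arm (left) and acute phase genes (right). Filled points have an adjusted p under 0.05 for the difference between the responses. Id1, Id2 and Id3 lay between -1.75 and -1.30 in mothers, and Saa2 at -2.54.

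Of 13 genes of iron uptake and release, 1 rose and 4 fell in fetal liver, beside 10.9% and 14.3% of all probes. Slc39a14, a carrier of iron not bound to transferrin, fell by 0.67 ± 0.30, and Cybrd1, a ferric reductase, by 0.55 ± 0.02 (SD, n = 3 each; adjusted p = 0.0170 and 0.00498). Steap3, the endosomal reductase that acts with transferrin receptor 1, rose by 0.29 ± 0.02 (SD, n = 3; adjusted p = 0.0128), and it was named after its values were seen. Steap4, a metalloreductase, was the gene of this list called in mothers, at -1.13, with -1.03 and -1.22 on the 2 arrays, and it gave -0.51 ± 0.39 in fetuses (SD, n = 3; adjusted p = 0.0602). Steap2, of the same family, gave 0.75 in mothers. Slc46a1, a folate carrier that also takes up heme, gave -0.55 ± 0.39 in fetuses (SD, n = 3; adjusted p = 0.0501).

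Of 6 genes in the list of storage and chaperones, 2 passed in fetal liver, beside 25.2% of all probes. Of these, Nqo1 is itself neither an iron store nor an iron chaperone. Nqo1, a quinone reductase, rose by 0.67 ± 0.16 and Pcbp1, which delivers iron to ferritin, fell by 0.40 ± 0.12 (SD, n = 3 each; adjusted p = 0.00730 and 0.0139). In mothers Ncoa4, the receptor that delivers ferritin for breakdown, gave 1.14 but less than 2-fold on 1 array (0.89), and Pcbp2, another iron chaperone, gave 0.57. Of 4 genes of the iron regulatory proteins, 0 passed in limma, with 1 at an unadjusted p under 0.05, Ireb2, which encodes an iron regulatory protein and gave -0.24 (adjusted p = 0.0860). The others were Fbxl5 at -0.15, Skp1 at 0.08 and Aco1 at 0.02. Of 15 genes of mitochondrial iron and iron-sulfur clusters, 4 rose and 1 fell, beside 10.9% and 14.3% of all probes, with Lyrm4 at 0.46 ± 0.12 and Fdx1 at -0.39 ± 0.11 (SD, n = 3 each; adjusted p = 0.0107 and 0.0130). Hscb and Slc25a28 also rose, by 0.42 and 0.29.

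Of 16 genes of heme synthesis and breakdown, 7 rose and 2 fell in fetal liver, with a median of 0.20, beside 10.9% risen and 14.3% fallen among all probes. Slc48a1, a heme transporter, rose by 0.64 ± 0.25, Fech, the last enzyme of heme synthesis, by 0.63 ± 0.28, and Hmox1, which breaks heme down, by 0.59 ± 0.20, while Uros fell by 0.52 ± 0.07 (SD, n = 3 each; adjusted p = 0.0139, 0.0174, 0.0111 and 0.00640). Alas1, the first enzyme of heme synthesis in liver, rose by 0.55 ± 0.28 (SD, n = 3; adjusted p = 0.0242) and gave 1.11 in mothers, with 1.28 and 0.94 on the 2 arrays. The summed level of 9 erythroid markers changed by 0.49 in the pool of 6, 0.50 in group 1 and -0.07 in group 2, and Fech gave 0.75, 0.82 and 0.31 in the same pairs. The part of red cell precursors in these values was not tested. All 5 genes of hemoglobin, heme and iron scavengers passed, beside 25.2% of all probes: Hp, Cd163 and, named after its values were seen, Hpx rose, and Lcn2 and Ltf fell, Ltf (lactoferrin) by 1.03 ± 0.15 (SD, n = 3; adjusted p = 0.00475). Hpx, like Hp, was bright, and its maternal arrays disagreed in sign (0.91 with FR in Cy5 and -1.13 with FR in Cy3). The part of the dye gap in these 2 calls was not tested. In control pools Ltf was at 15.14 in fetuses and 7.44 in mothers, and Lcn2 was at 13.64 and 10.33. The part of cell content in the Ltf and Lcn2 values was not tested.

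**Figure D5:**
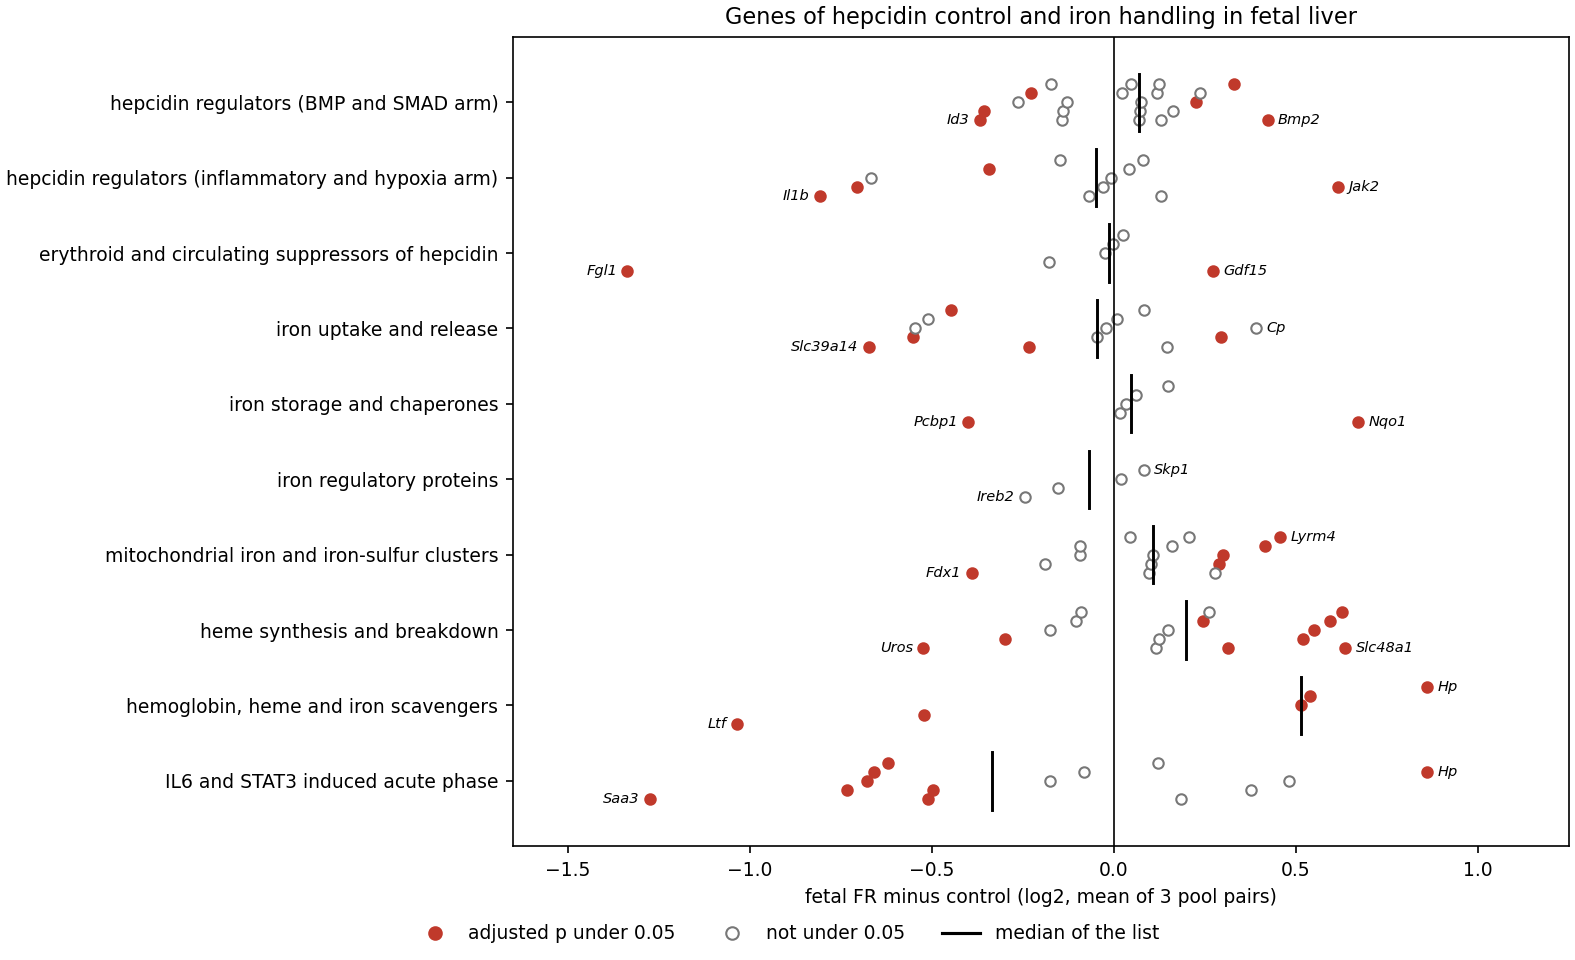
Fetal response (log2, mean of 3 pool pairs, x axis) of each gene in 10 lists of hepcidin control and iron handling (rows). Filled points had an adjusted p under 0.05, and the bar is the median of the list. The median was -0.34 for acute phase genes and 0.20 for heme synthesis and breakdown.

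The 5 genes whose responses lay closest to those of Hamp over the 4 pool pairs, by root mean square difference among 14653 genes, were Apoa5 (0.26), Rnase4 (0.39), Akr1b7 (0.41), Akr1c18 (0.44) and Tmem141 (0.46). Apoa5 encodes a liver apolipoprotein, and Akr1b7 and Akr1c18 encode aldo-keto reductases. Apoa5 gave 1.94, 0.75 and 2.16 in the fetal pairs and 0.33 in mothers, where Hamp gave 2.35, 0.76, 1.87 and 0.21. These values describe likeness over 4 pairs, chosen for it, and carry no test.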

How the data were processed

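Two-colour arrays (60-base probes) were deposited as scanner output. Spot and local background intensity, and flags for dim, saturated and uneven spots, were written by Agilent Feature Extraction 9.5.3.1 (slide 1) and 11.0.1.1 (slide 2), per the file headers. The deposited log10 ratios of Cy5 over Cy3 equalled the ratio of the software's processed signals, had medians of -0.0218 to 0.0126 and served as an alternative. Label titles were followed, because the descriptions also carry text of another experiment.

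From the deposited intensity, mean spot signals (medians on slide 2) were background-corrected with normexp (offset 50) and corrected by loess in limma 3.58.1 (R 4.3.3). Log2 ratios were turned to FR minus control, outlier spots left out, spots of a probe averaged and the 2 arrays of a pool pair averaged. Levels came from single channels after quantile normalization of mean intensity. For responses, a probe was kept if, in 1 of the diets, each array of the comparison had it well above background (25466 of 41174 were so in both channels of all arrays). For control levels, it was kept if the control channel was well above background on both maternal arrays or on all 6 fetal arrays. Limma tests were two-sided with Benjamini-Hochberg adjustment over all probes that passed, at 0.05, and were checked on simulated data. Intervals are 95% intervals of that fit. The small number of pool pairs limits the precision.

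The 9 genes and the gene lists were chosen with earlier results of these data known. Every gene was read from its brightest probe that passed, and 8357 probes had no gene name. The text names all 9 genes, up to 4 genes of each list with the largest fetal response and up to 2 with the largest maternal one, and the 5 most like Hamp, except for items not reported here. Other lists covered markers of hepatocytes, erythroid, Kupffer, endothelial and stellate cells. Alternatives covered background, loess, scaling, processed and median signals, uneven and dim spots, dye, slide, the pool pair as a random block and leaving out each fetal pair.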

Additional observations from a re-analysis of the deposited data

Results flagged for a closer look

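For 13 of 148 member and list genes tested (8.78%, beside 3.12% of all probes), the maternal response to food restriction differed from the fetal one in a test of the difference itself (limma, maternal minus fetal log2 response, 1 maternal and 3 fetal pool pairs). Among the members these were Tfrc (-1.44) and Hamp2 (-1.38). Tfrc gave -1.53 and -1.39 on the maternal arrays and -0.09 to 0.04 in the fetal pairs. The Hamp2 difference came with maternal arrays of -0.13 and -2.53. Each of the 148 genes was read from its brightest probe, while the share of all probes counts every probe kept. The genes and lists were chosen with earlier results of these data known, so the shares are not a like comparison.

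Among hepcidin regulators the difference was -1.82 for Id2, -0.96 for Id3, -0.84 for Smad6, 1.11 for Furin and -1.29 for Gdf15. Gdf15 was at -1.01 in mothers and 0.27 in fetuses. Among heme and iron scavenger genes it was 0.84 for Flvcr2 and 0.93 for Ltf, and among acute phase genes -2.72 for Saa2. Among markers it was 1.06 for Tdo2 (hepatocytes), 1.36 for Klf1 (erythroid cells) and -0.69 for Adgre1 (macrophages). Some of these genes were dim on 1 side. In maternal control liver Ltf was at 7.44 and Klf1 at 8.18, where Ddx3y, below background, was at 6.16. In fetal control pools Saa2 was at 7.58, Tdo2 at 7.01 and Hamp2 at 7.68. The part of low signal in these differences was not tested. With the fetal pool of 6 left out, limma called 0 probes, with 4520 at an unadjusted p under 0.05.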

How the results depend on the processing

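Among single-gene values under alternatives, 375 kept their direction and side of the threshold or stayed within the spread, 19 lost the threshold, 4 crossed it, 8 moved by more than the spread and 23 turned. In fetal liver Hamp kept its sign in all 14 alternatives (1.32 to 2.11, adjusted p up to 0.119), and Slc11a2 in all 15 (-0.61 to -0.44). In the level comparison Hamp, Hamp2, Tfr2 and Hfe kept theirs in all 11. Where no cause is named, it was not tested.

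With no loess, 4601 fetal, 182 maternal and 274 response-difference probes were called (main 7778, 577 and 861), with no maternal member, although Tfrc was at -1.48 there. Fetal Tfr2 was then -0.042, Slc40a1 -0.073 and Hfe -0.018, response differences of Tfr2 0.23 and Trf 0.13, and the level of Trf -0.059. Scaled between arrays, limma called 0 fetal probes (10918 at an unadjusted p under 0.05) and 0 members (4 unadjusted), and 93 response differences, with fetal Tfrc at 0.0035. Processed signals called 1335 maternal probes and 1975 response differences. Response differences were then 0.081 for Tfr2 and 0.10 for Trf, with the Trf level at -0.12. The Hamp2 level difference was then 1023-fold, against 609-fold. With median signals on slide 1 the Trf level was -0.052. Leaving out uneven spots kept only 2 members with a fetal value, since the flag took most bright spots of slide 1. The calls were then 4075 fetal probes and 1 member, 351 maternal probes, 249 response differences and 0 members, and 4263 level differences and 1 member.

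With FR in Cy5 alone, 909 maternal probes and 1 response member were called, fetal Trf was 0.23, and response differences were 0.16 for Tfr2 and 0.058 for Trf. With FR in Cy3 alone, 907 maternal probes and 4 maternal members were called, and fetal Hamp2 was -0.064, Tfrc 0.10 and Fth1 -0.31. With slide as a block 3315 fetal probes were called. With the pool pair as a random block 2 members were called, Hamp and Slc11a2.

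Leaving out each fetal pair in turn gave 1099 to 6903 fetal probes and 1 to 3 members, 0 to 1173 response differences and 0 to 3 members, and 5904 to 15741 level differences. The lowest fetal count and the 0 response differences (4520 at an unadjusted p under 0.05) were without the pool of 6. Fetal values ranged from -0.049 to 0.018 for Tfrc, -0.086 to 0.26 for Tfr2 and -0.047 to 0.25 for Slc40a1, and response differences from -0.18 to 0.17 for Tfr2 and -0.24 to 0.087 for Trf.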

Other observations

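Markers of other liver cells moved unevenly in fetal liver, and their calls are to be read beside 10.9% risen and 14.3% fallen among all probes. Of 10 Kupffer cell and macrophage markers, Marco, a scavenger receptor, rose by 0.69 ± 0.09, while Clec4f, a Kupffer cell lectin, fell by 1.05 ± 0.55 and Adgre1, a macrophage surface receptor, by 0.46 ± 0.04 (SD, n = 3 each; adjusted p = 0.00491, 0.0220 and 0.00690). The summed level of the list changed by 0.11, 0.03 and 0.14 in the 3 pairs, and Csf1r gave -0.16. Of 4 stellate markers, Lrat, which esterifies vitamin A, fell by 0.96 ± 0.45 and Reln by 0.34 ± 0.03 (SD, n = 3 each; adjusted p = 0.0178 and 0.0103), while Des and Dcn gave 0.05 and -0.06. Of 6 endothelial markers, the cells that make Bmp2 and Bmp6, Stab2 and Tek fell and none rose, and Pecam1, Kdr and Lyve1 gave -0.18, -0.10 and -0.05 in fetuses. Of 7 hepatocyte markers, Cps1 rose by 0.67 ± 0.42, and Ttr fell by 0.97 ± 0.39 and Alb by 0.45 ± 0.15 (SD, n = 3 each; adjusted p = 0.0375, 0.0134 and 0.0143). Alb was bright, and its maternal arrays gave 1.08 with FR in Cy5 and -1.08 with FR in Cy3. Apoa1 gave 0.31 in fetuses, and in mothers Ass1 gave 0.89, with 1.52 and 0.27 on the 2 arrays.

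Of 9 erythroid markers, Klf1, a red cell transcription factor, fell by 0.47 ± 0.04 in fetal liver (SD, n = 3; adjusted p = 0.00642). No other passed, beside 25.2% called among all probes. Alas2 gave 0.26 and Rhag 0.32 in fetuses (adjusted p = 0.251 and 0.0855). Slc4a1, the red cell anion exchanger, gave 0.80, 0.78 and 0.049 in the pool of 6, group 1 and group 2 (adjusted p = 0.0635).

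Over all probes that passed in mother and fetus, the responses of the fetal pool of 6 correlated with those of group 1 at Pearson r = 0.826 and of group 2 at 0.776, and groups 1 and 2 with each other at 0.735. The correlation is across probes, which are not independent replicates. The maternal response correlated with the fetal ones at 0.432 to 0.491.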
